A study of Drosophila melanogaster with 3 samples.

Results

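The cytosolic ribosomal protein genes were taken as the genes whose symbol begins with RpL or RpS and a number, together with RpLP0, RpLP1 and RpLP2, with the mitochondrial mRp genes left out. The rule gave 92 genes, all protein-coding, of 18164 annotated genes on the 6 chromosome arms with 23998 transcription start sites (TSSs). They comprised 47 genes of the large subunit, 37 of the small subunit, the 3 stalk genes RpLP0, RpLP1 and RpLP2, and 5 genes whose symbols end in -like. Binding was assayed by ChIP-seq in whole Drosophila melanogaster embryos of mixed sex, 6 to 24 h old by the source name. The embryos came from a stable transgenic line, called strain Hey, that carries Hey with GFP at its C terminus. The 3 biological replicates form 1 group, with neither a second genotype nor a second age. Their free-text description calls them input controls, whereas the assay title, the antibody and a separately listed control mark them as ChIP of a transcription factor, and they were read as such. The promoter that drives the transgene is not given in the sources used here, and since whole embryos were pooled, binding in few cells and weak binding in many cells cannot be told apart.

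Each ribosome carries 1 copy of most of these proteins, and the genes that encode them are transcribed in every growing cell. Many are Minute loci in flies, where loss of 1 copy delays development. Their promoters are known for a start site of the TCT type, a short pyrimidine tract in place of the usual initiator, and for sites of the factors DREF, which binds the DNA replication-related element (DRE), and M1BP. Hey is a basic helix-loop-helix protein related to Hairy and the Enhancer of split proteins, most of which repress transcription. Proteins of this group bind the E-box CACGTG and the class C site CACGCG.

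The sequences of 12 promoters are printed first, since they show the start sites near which most summits lay and the motifs around them. Each run covers 100 bases before the TSS of the canonical transcript and 10 bases from it, 5′ to 3′ on the strand of the gene, from the release 6 genome (dm6). Capitals mark the E-box CACGTG, the class C site CACGCG, the DRE core ATCGATA and the M1BP core GGTCACA, each on either strand, and a CTTT that begins within 5 bases of the TSS on the strand of the gene, which stands for a TCT-type start. A letter match is a description and not a bound site. RpS27 (chr3R:25247505-25247614, minus strand), RpS4 (chr3L:13041656-13041765, plus strand), RpL14 (chr3L:8600906-8601015, plus strand), RpL13A (chr3R:5624374-5624483, plus strand), RpL28 (chr3L:3222949-3223058, minus strand) and RpL13 (chr2L:9967230-9967339, plus strand) had strong regions. RpL10 (chr3L:23095462-23095571, minus strand) and RpL5 (chr2L:22536875-22536984, minus strand) had no region in any list. The pairs RpS10a (chr3R:27652660-27652769, plus strand) and RpS10b (chrX:19597940-19598049, plus strand), and RpS14a (chrX:7933642-7933751, plus strand) and RpS14b (chrX:7934798-7934907, plus strand), are paralogs of which only the b copy had a region in the IDR list. The IDR summits of RpL14, RpL13A, RpL28, RpL13, RpS10b and RpS14b fall inside the printed runs, and those of RpS27 and RpS4 lie just downstream of them. For RpS4 the summit is next to another of its TSSs.
RpS27: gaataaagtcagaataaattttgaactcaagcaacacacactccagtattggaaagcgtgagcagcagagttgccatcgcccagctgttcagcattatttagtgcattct
RpS4: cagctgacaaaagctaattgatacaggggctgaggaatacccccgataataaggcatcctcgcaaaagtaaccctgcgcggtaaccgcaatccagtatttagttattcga
RpL14: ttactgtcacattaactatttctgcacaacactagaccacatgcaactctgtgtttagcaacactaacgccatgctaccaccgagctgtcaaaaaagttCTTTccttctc
RpL13A: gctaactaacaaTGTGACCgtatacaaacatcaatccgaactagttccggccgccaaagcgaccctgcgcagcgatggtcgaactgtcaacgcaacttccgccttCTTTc
RpL28: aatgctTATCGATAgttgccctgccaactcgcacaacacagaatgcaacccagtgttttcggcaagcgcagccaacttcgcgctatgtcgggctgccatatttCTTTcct
RpL13: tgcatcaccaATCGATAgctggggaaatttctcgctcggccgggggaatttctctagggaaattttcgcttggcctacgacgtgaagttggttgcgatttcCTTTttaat
RpL10: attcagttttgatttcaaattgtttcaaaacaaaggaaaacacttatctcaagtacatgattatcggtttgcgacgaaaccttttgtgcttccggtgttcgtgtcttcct
RpL5: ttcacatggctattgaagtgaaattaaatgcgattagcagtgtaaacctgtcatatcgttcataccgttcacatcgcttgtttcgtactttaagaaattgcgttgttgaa
RpS10a: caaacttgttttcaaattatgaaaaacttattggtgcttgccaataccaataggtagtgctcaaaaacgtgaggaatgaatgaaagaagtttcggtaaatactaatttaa
RpS10b: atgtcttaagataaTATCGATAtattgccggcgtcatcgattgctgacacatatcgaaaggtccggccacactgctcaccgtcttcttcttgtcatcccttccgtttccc
RpS14a: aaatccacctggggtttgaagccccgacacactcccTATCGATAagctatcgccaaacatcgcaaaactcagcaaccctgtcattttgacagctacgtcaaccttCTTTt
RpS14b: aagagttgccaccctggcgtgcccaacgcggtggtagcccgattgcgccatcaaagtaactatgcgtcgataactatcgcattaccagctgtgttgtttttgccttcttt

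Hey-GFP regions lay at the start of most ribosomal protein genes. The IDR list is the authors' set of regions thresholded on agreement between replicates. Its 3319 regions were the 3319 highest of the pooled list, in the same order. A gene was counted as hit when the summit of a region, its point of highest signal, lay within 1000 bp of one of its TSSs, and distances are from the nearest of them. By this count 54 of the 92 genes were hit (58.7%, 95% Wilson interval 48.5 to 68.2), against 10.7% of all annotated genes and 11.4% of protein-coding genes. The interval covers counting error over genes only. The large subunit had 30 of 47 genes hit, or 63.8%, with an interval of 49.5 to 76.0. The small subunit had 19 of 37 hit, or 51.4%, with an interval of 35.9 to 66.6, so the intervals overlap. The stalk genes, whose proteins recruit the elongation factors to the ribosome, were hit 3 of 3 times, and 2 of the 5 -like genes were hit, RpLP0-like and RpS28-like. The 54 hits came from 58 distinct regions, 1.75% of the 3319 in the IDR list, with 1 region at 50 genes and 2 regions at RpL28, RpL30, RpL34b and RpS28b.

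The pooled list, called from all replicates together and holding 30000 regions of strong and weak evidence, had a summit at 70 of the 92 genes (76.1%), against 39.3% of all genes. The 3 replicate lists, also of 30000 regions each, hit 78, 62 and 80 of them in replicates 1, 2 and 3, against 49.8%, 38.7% and 45.7% of all genes. Since lists of that length hit many genes of any kind, the 3319 regions of highest signal in each replicate, as many as in the IDR list, were counted as well. They hit 40 ribosomal protein genes in replicate 1, 49 in replicate 2 and 63 in replicate 3 (mean 50.7 ± 11.6, SD, n = 3), or 43.5%, 53.3% and 68.5%. The same regions hit 12.4%, 9.76% and 10.5% of all genes. Replicate 1 was the lowest of the 3 for these genes and the highest for all genes. A total of 31 genes, 33.7%, were hit in all 3 replicates, against 5.29% of all genes, while 21 were hit in 2 replicates, 17 in 1 and 23 in none.

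The difference between the share of ribosomal protein genes and the share of all genes was 31.1, 43.5 and 58.0 percentage points in replicates 1, 2 and 3 (mean 44.2 ± 13.5, SD, n = 3), and the values of the sets did not overlap. An exact sign-flip permutation test over the replicates, two-sided, gave p = 0.25, the smallest that 3 replicates allow. The large subunit was above the small subunit in 3 of 3 replicates, at 46.8% against 40.5%, 59.6% against 48.6% and 72.3% against 62.2%. That difference of 9.12 ± 2.5 points (SD, n = 3; exact sign-flip permutation test, two-sided, p = 0.25) is smaller than the spread of either share between replicates, 12.8 and 10.9 points. Both shares come from the same library and rose together from replicate 1 to 3, so the spread of the paired difference is the 2.5 points. Over the 7 comparisons of this kind that were made, the Benjamini-Hochberg adjusted p was 0.292 for 6 and 0.5 for the other, so none passed 0.05. The order of the subunits also depended on the list, since among all regions of replicates 1 and 3 the small subunit had the higher share, 89.2% against 80.9% and 91.9% against 83.0%.

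**Figure D1:**
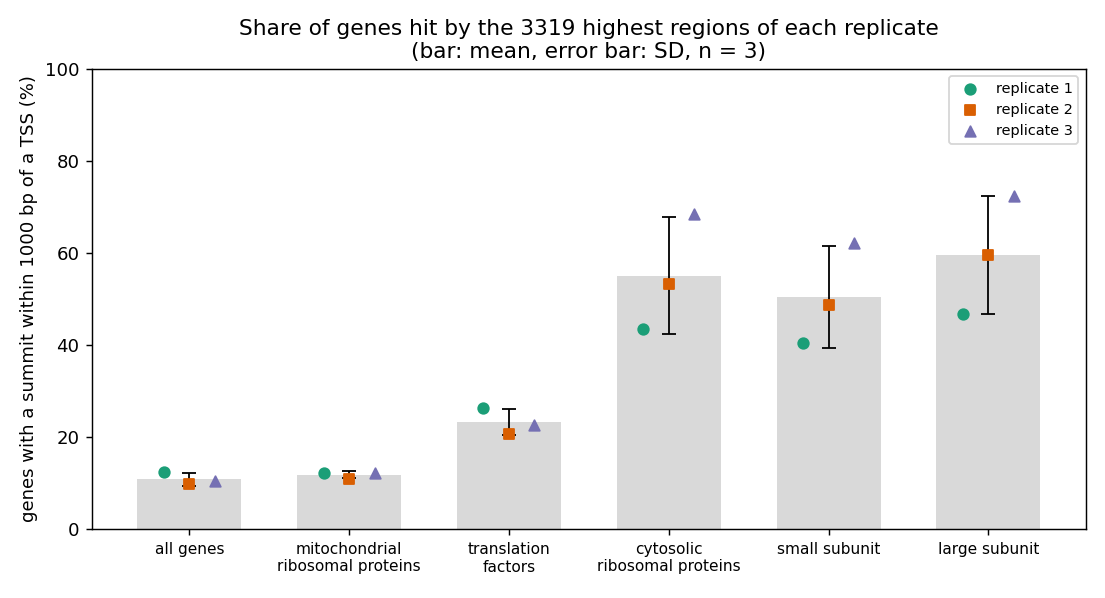
Share of genes, in percent, with a summit of the 3319 highest regions of a replicate within 1000 bp of a TSS. Points are the 3 replicates, bars their mean and error bars the SD. The cytosolic ribosomal protein genes lie between 43.5% and 68.5%, and all genes between 9.76% and 12.4%.

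The genes of 2 related sets set these shares in context. Of 73 mitochondrial ribosomal protein genes, which encode the ribosome inside mitochondria, 9 had an IDR region (12.3%), close to the 10.7% of all genes. Of 53 genes of translation initiation and elongation factors, 11 had one (20.8%). In the 3319 highest regions, the cytosolic genes were above the mitochondrial ones by 43.2 ± 12.5 points and above the translation factors by 31.8 ± 14.4 points (SD, n = 3), in 3 of 3 replicates each, and both exact sign-flip permutation tests gave p = 0.25. Both genes of the cytosolic ribosome whose names fall outside the symbol rule had IDR regions. They were sta, which encodes the small subunit protein SA, at rank 1089, and Rack1, a scaffold on the small subunit, at rank 679.

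Ranks show how high the regions stood, where rank 1 is the highest signal value in a list. The signal is the authors' own value, of unstated scale, and was used here only to order regions within a list. Over the 54 genes the median rank of the strongest IDR region was 813, with a range of 42 to 3096. For all 1938 genes with an IDR region it was 1438. The 500 highest IDR regions reached 21 ribosomal protein genes and the 1000 highest reached 33, or 35.9%, against 3.88% of all genes. Among the hit genes the median rank was 478 for the large subunit and 872 for the small subunit.

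RpS27, which encodes a zinc-finger protein of the small subunit, had the highest region of the family. Its rank was 42 in the IDR list and 222, 18 and 31 in replicates 1, 2 and 3, with summits 1, 13 and 16 bp after the TSS. The IDR region spanned chr3R:25247360-25247677 and its summit at 25247499 fell in the 5′ UTR. RpL7, a large subunit protein, followed at rank 82, with ranks 150, 59 and 155 in the replicates. Its region at chr2L:10200887-10201173 had the summit 25 bp after the TSS, in the 5′ UTR. RpS4 stood at rank 185, and at 362, 145 and 205 in the replicates. Its region at chr3L:13041653-13041937 had the summit 1 bp after the nearest TSS, again in the 5′ UTR. All 3 genes were among the 500 highest regions of every replicate.

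RpL30 had rank 126 in the IDR list and ranks 403, 186 and 36 in the replicates, but this region, chr2L:19009798-19010553, lay away from its start. The summit was at -931 bp (a negative sign is upstream), and nearer to the TSS of robl37BC, at -629 bp from it. A second IDR region, at rank 514, had its summit 26 bp after the TSS of RpL30, so the gene counts as hit either way. RpL34b had rank 187 and ranks 558, 119 and 254, with a summit at -76 bp in chr3R:9401156-9401413. RpL14 had rank 222 and the closest agreement of the 10 highest genes, with ranks 283, 216 and 285 and a summit at -40 bp in chr3L:8600820-8601096. RpL28 had rank 310 and ranks 1189, 156 and 417, with a summit at -59 bp in chr3L:3222895-3223148.

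RpL11, which with RpL5 carries the 5S RNA into the large subunit, had IDR rank 224 and ranks 226 and 427 in replicates 1 and 3, but no region within 1000 bp in the list of replicate 2. Its summit was at -45 bp in chr2R:19442173-19442423. RpL13A showed another spread. It had IDR rank 228 and ranks 1806, 111 and 152, with a summit at -54 bp in chr3R:5624270-5624551. Replicate 1 stood more than 1000 ranks below the others.

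Replicate 1 ordered the ribosomal protein genes differently from the other two. Of the 48 hit genes with a region in every replicate list, 45 had a lower place in replicate 1 than in replicate 2, and 37 a lower place than in replicate 3. Their median ranks were 2160, 372 and 767 in replicates 1, 2 and 3. Across these 48 genes, as a description, the Spearman correlation of ranks was 0.906 between replicates 2 and 3, and 0.397 and 0.417 between replicate 1 and each of them. The genes share their libraries and are not independent. The other 6 hit genes, RpL3, RpL11, RpL31, RpL35A, RpS20 and RpLP0-like, had no region within 1000 bp in replicate 2, although all 6 had one in replicates 1 and 3. Over the whole IDR list, 119 of 3319 regions (3.59%) had no summit of replicate 2 within 1000 bp, against 13 for replicate 1 and 11 for replicate 3.

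**Figure D2:**
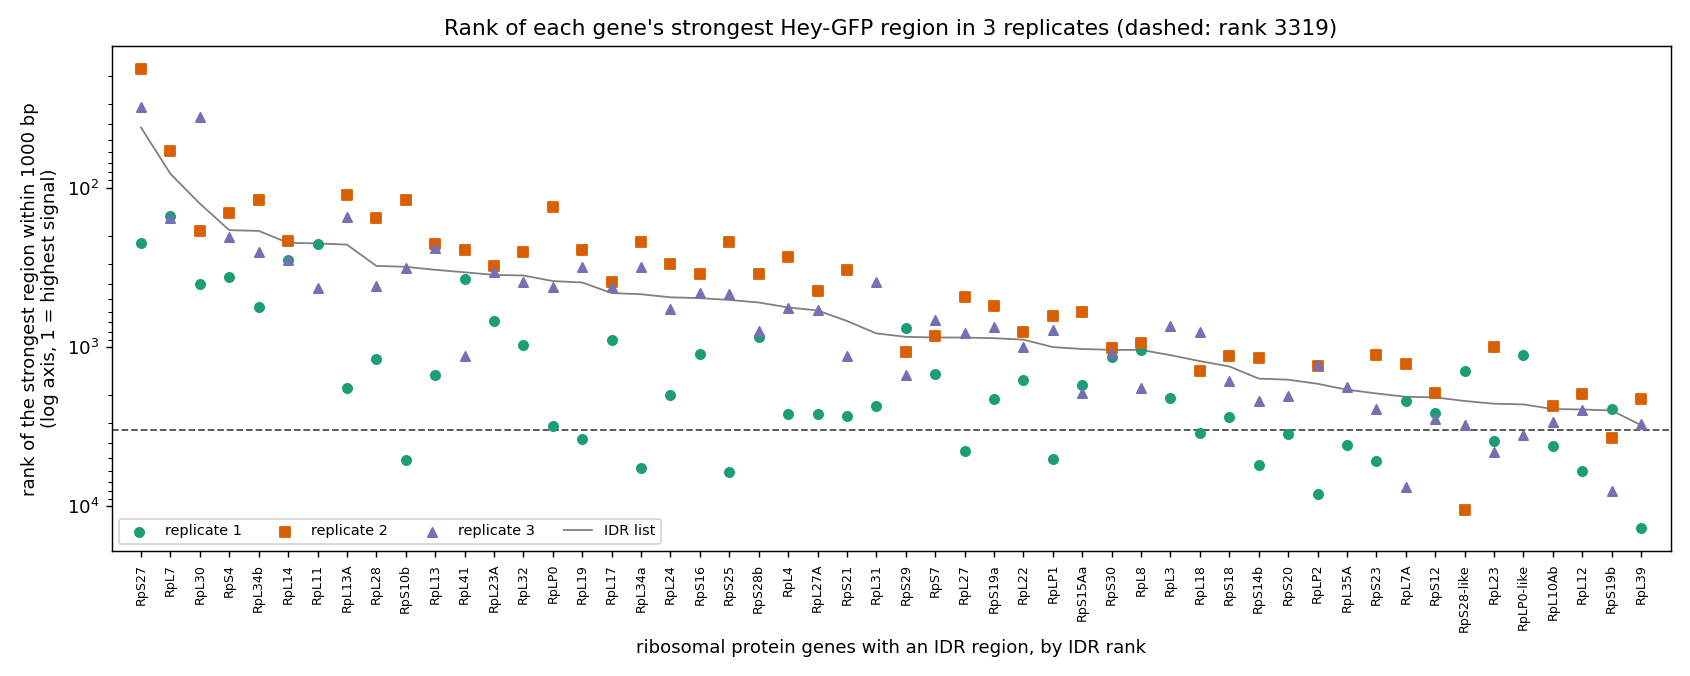
Rank (log axis, 1 at the top) of the strongest region within 1000 bp of a TSS, for 52 of the 54 ribosomal protein genes with an IDR region, ordered by IDR rank (grey line). Points are the 3 replicates and the dashed line is rank 3319. Replicate 1 lies below replicate 2 for 43 of the 46 plotted genes with a region in all 3 lists.

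All of the genes among the 3319 highest regions in every replicate also had an IDR region. The reverse did not hold, since 23 of the 54 missed the 3319 highest in 1 or more replicates. RpLP1 and RpLP2, the acidic proteins of the stalk, were of this kind. RpLP1 had ranks 5018, 635 and 780 in the replicates, and RpLP2 had ranks 8380, 1308 and 1297. Both were low in replicate 1 alone. RpLP0, which anchors the stalk, stayed inside the limit with ranks 3149, 133 and 423. RpL39, one of the smallest proteins of the large subunit, had the widest range of ranks of the 54, with IDR rank 3096 and ranks 13750, 2115 and 3038. RpL19, RpL27, RpL34a, RpL18, RpL12, RpL10Ab, RpS10b, RpS14b, RpS23 and RpS25 were likewise outside the 3319 highest in replicate 1 and inside in the other two.

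The summits stood close to the start sites. The median position of the strongest IDR summit of the 54 genes was -26 bp, with quartiles of -44.8 and -2.25 bp, and 48 of the 54 (88.9%) lay within 100 bp of a TSS. Of the 54 summits, 41 were upstream, 12 downstream and 1, at RpS18, on the TSS itself. The strongest summits of the 1542 other protein-coding genes with an IDR region had a median of -131 bp, with quartiles of -310 and 17.8 bp, and 25.6% lay within 100 bp. The mitochondrial ribosomal protein genes had a median of -141 bp over 9 genes, and the translation factors -37 bp over 11. For the 3319 highest regions of replicates 1, 2 and 3 the ribosomal protein medians were -6, -36 and -15 bp, and those of other coding genes -84.5, -157 and -148 bp. In each replicate the ribosomal protein median was thus nearer to the TSS. Large and small subunit genes had medians of -26 and -19 bp.

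**Figure D3:**
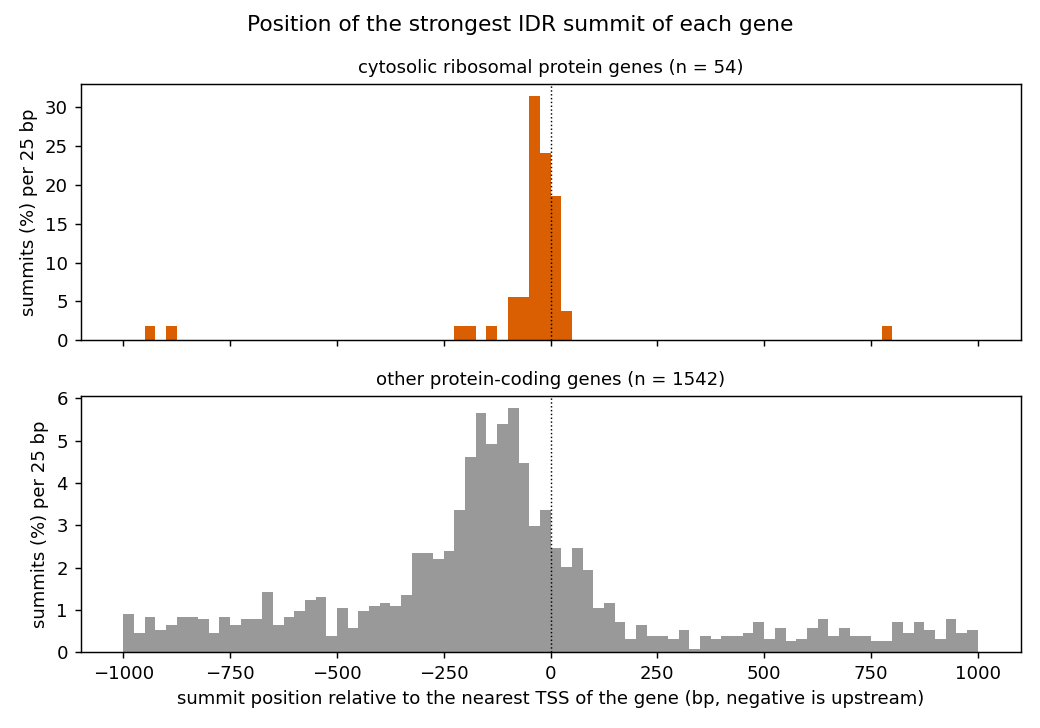
Position of the strongest IDR summit relative to the nearest TSS of the gene, in bins of 25 bp, as a percentage of summits. The 54 ribosomal protein genes (top) have a median of -26 bp, and the 1542 other protein-coding genes (bottom) have a median of -131 bp.

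By annotation, 34 of the 54 summits were intergenic, 18 lay in a 5′ UTR and 2 in an intron, at RpL41 and RpS19b, with none in a coding exon. For 7 genes the summit was nearer to the TSS of another gene. They included RpL30, RpL34a (nearest Trmt61), RpS20 (CG17271), RpS28-like (numb), RpLP0-like (14-3-3zeta) and RpS19b (CG5854). The summit near RpS28-like lay 776 bp after its TSS and 111 bp after that of numb, a Notch inhibitor. Given only to the gene with the nearest TSS, regions still hit 48 of the 92 genes (52.2%), against 7.75% of all genes. RpL13 shares its start region with Dref, the gene of the factor that binds the DRE, the starts are 84 bp apart, and both lie within reach of 1 summit.

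The 38 genes without an IDR region were not alike. A pooled region was present at 16 of them (42.1%), near the 39.3% of all genes, a share that includes genes with an IDR region. Their pooled ranks lie beyond 3319 by the makeup of the IDR list, and RpL35, at 3350, stood nearest to that limit. In all, 15 of the 38 (39.5%) were among the 3319 highest regions of at least 1 replicate, while 82.6% of all genes were outside those of every replicate. RpL9 was the clearest of these, with rank 798 in replicate 2 and 435 in replicate 3, summits 15 and 0 bp from the TSS, and no region in replicate 1 or in the pooled list. RpL37A had ranks 1206 and 2500 in replicates 2 and 3, and RpL26 had ranks 3103 and 2959 in replicates 1 and 3. The other 12 were among the highest of 1 replicate only, and 10 of those 12 in replicate 3. They included RpS3A at rank 1762, the only family member on chromosome 4, RpS27A at rank 1474, whose product is fused to ubiquitin, and RpS6 at rank 1381, the target of S6 kinase.

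Only 5 genes had no summit within 1000 bp in any of the 5 lists: RpL5, RpL10, RpL21, RpL10Aa and RpL22-like. Counted over all regions of the 3 replicate lists alone, 5.43% of the 92 genes had none, against 32.6% of all genes. RpL5 works with RpL11, which had IDR rank 224. RpL10, one of the last proteins to join the large subunit, RpL21 and RpL5 lay in stretches with no pooled summit within 50000 bp, as did RpL15, RpL38, RpS3A and RpS27A. These 7 are 7.61% of the 92 genes, while 2.04% of all protein-coding genes lay so far from a pooled summit. They are 18.4% of the 38 genes without an IDR region. Genes with an IDR region cannot be among them, since the pooled list holds every IDR region. Of these 7, RpS3A and RpS27A had a region within 1000 bp in replicate 3 alone, at ranks 1762 and 1474, and RpL15 and RpL38 in replicate 2 alone, at ranks 19162 and 7375. RpL9 lay 17290 bp from the nearest pooled summit.

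Genes with and without an IDR region differed in their surroundings. Another protein-coding gene began within 1000 bp of 39 of the 54 genes with a region (72.2%) and of 19 of the 38 without (50%), against 42.9% of all protein-coding genes. Put the other way, 67.2% of the 58 ribosomal protein genes with such a neighbour were hit and 44.1% of the 34 without, and for all protein-coding genes these shares were 14.8% and 8.93%. Many ribosomal protein genes hold small nucleolar RNA genes in their introns, which guide the modification of ribosomal RNA. Such a gene lay inside 20 of 54 (37.0%) and 8 of 38 (21.1%), against 0.688% of all protein-coding genes. The median gene length was 1374 and 1166 bp with and without a region, and the median GC content of the promoter was 39.0% and 35.7%. These comparisons are over genes and carry no test.

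Motif content separated the family from all protein-coding genes more than it separated hit from missed members, but only partly from related sets. In promoters from 250 bases before to 50 after the TSS, CTTT at the start was found at 45.7% of the 92 genes, against 5.72% of protein-coding genes. It was present at 23 of the 54 genes with an IDR region (42.6%) and 19 of the 38 without (50%). The DRE core ATCGATA was found at 40.2% of the family, at 42.6% with and 36.8% without a region, against 17.7% of protein-coding genes. The M1BP core GGTCACA was found at 16.7% with and 18.4% without, against 9.45%. The Wilson intervals of the hit and missed genes overlapped for each of these 3. Of the 3, only the CTTT start set the family apart from the translation factor genes, which held it at 11.3%. Those genes held ATCGATA at 47.2% and GGTCACA at 18.9%. The mitochondrial ribosomal protein genes held the 3 at 4.11%, 32.9% and 13.7%. GAGAGAG, the element of GAGA factor, was found in none of the 92 promoters and in 6.2% of all, and TATAAA was found at 45.7% and 45.3%. GAGAGAG and TATAAA were searched on both strands like the other motifs.

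The sites known for the class of Hey were also more frequent in the family than in all protein-coding promoters. CACGTG occurred in 12.0% of the 92 promoters and CACGCG in 16.3%, against 4.26% and 6.47% of protein-coding genes. The translation factor genes held CACGTG at 7.55% and CACGCG at 15.1%, the latter close to the family. CACGTG was found at 6 of 54 genes with an IDR region and 5 of 38 without, so it did not separate them. CACGCG was found at 11 of 54 and 4 of 38, or 20.4% and 10.5%, with intervals of 11.8 to 32.9 and 4.17 to 24.1 that overlap. The E-box variant CAGCTG went the other way, at 9.78% of the family against 17.9% of protein-coding genes, while 54.8% of the 73 mitochondrial ribosomal protein promoters held it. CACATG, a further variant, was found at 6.52% of the family and 9.78% of protein-coding genes. CACNAG, which is not an E-box, was found at 23.9% and 29.8%.

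**Figure D4:**
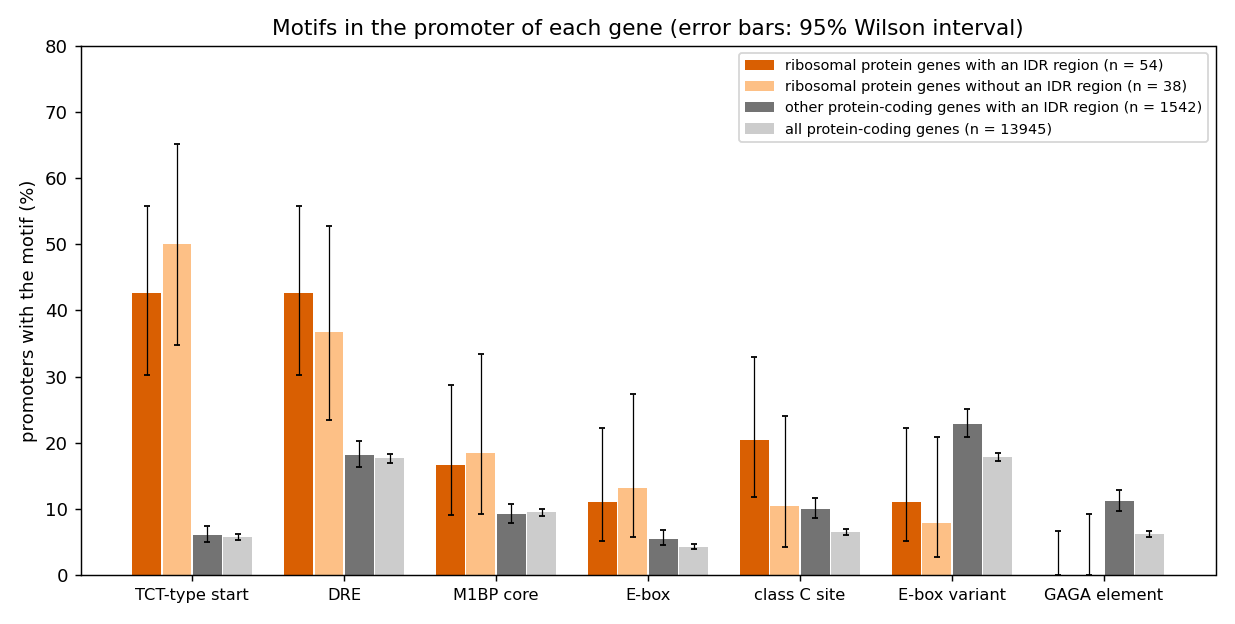
Share of promoters, in percent, with each motif, from 250 bases before to 50 after the TSS, with 95% Wilson intervals over genes. Ribosomal protein genes with and without an IDR region lie near each other for the TCT-type start (42.6% and 50%), and both lie above all protein-coding genes (5.72%).

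Per replicate, genes with CACGTG or CACGCG were hit more often than the rest of the family, at 52.0% against 40.3%, 60.0% against 50.7% and 80% against 64.2% (difference 12.3 ± 3.32 points, SD, n = 3). Genes with a CTTT start exceeded those without by 5.27 ± 1.96 points, in 3 of 3 replicates. The IDR list had the reverse order, with 54.8% of genes with a CTTT start hit and 62% of those without. Genes with ATCGATA exceeded the rest by 8.85 ± 8.58 points, in 2 of 3 replicates, with a difference of -0.393 points in replicate 1. Exact sign-flip permutation tests, two-sided, gave p = 0.25, 0.25 and 0.5, and these 3 splits were added after seeing the data. The differences for the CTTT start and ATCGATA were smaller than the spread of the shares between replicates, and that for CACGTG or CACGCG lay between the SDs of its shares, 14.4 and 12.0 points. These are spreads of single shares, while the SDs given with the differences are those of the paired differences.

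Around the summit itself, within 100 bp to either side, the balance of motifs differed from that at other Hey-GFP regions. ATCGATA was found near 21 of the 54 summits (38.9%), near 5.26% of 1388 other IDR summits within 1000 bp of a coding TSS, and near 1.46% of 1713 IDR summits that lay farther than 1000 bp from any TSS. GGTCACA was found near 14.8%, 2.52% and 1.75%. CACGTG was found near 11.1%, 9.08% and 24.1%, and CACGCG near 20.4%, 13.2% and 16.5%. At least one of CACGTG and CACGCG lay near 16 of the 54 summits (29.6%), against 21.0% and 37.5%, so 38 of the 54 summits had neither within 100 bp. The windows around summits did not cover the same part of the promoter. Within 100 bp of a TSS lay 88.9% of the family's strongest summits and 25.6% of those of other protein-coding genes. In promoters from 250 bases before to 50 after the TSS, ATCGATA was found at 42.6% of the hit family genes. Other protein-coding genes with an IDR region held it at 18.2%. The motifs were read at summits of known position, and nothing was tested.

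A few sites near the summits are printed with the bases on either side, as they read on the plus strand of release 6, as examples, picked with their values known, of the E-box and the class C site near ribosomal protein summits. Capitals mark CACGTG, or CACGCG read on either strand. RpL7 held CACGTG 7 bp from its summit and CACGCG 14 bp from it on the minus strand, RpL24 held CACGTG at 23 bp, RpS4 at 62 bp, and RpS21 and RpS19a held CACGCG at 5 and 22 bp. Of the 10 highest genes, RpL7, RpS4 and RpL11 had one of these sites within 100 bp, and RpS27, the highest, had neither.
RpL7: tggcgcgcgtgtCACGTGtgcacgcatttc
RpL7 second site: tggccgatggcgCGCGTGtcacgtgtgcac
RpL24: aaaaaataccacCACGTGccgaaggcgtgc
RpS4: tttgcagctagcCACGTGctaagttttgtc
RpS21: gacagggggcgcCACGCGcagcgcagccaa
RpS19a: cgcagccaacttCACGCGccttgttctttt

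Paralogs, copies of 1 gene that encode related proteins, mostly differed in their regions. The family held 13 such pairs, with RpS28-like counted apart from RpS28a and RpS28b. Both genes of 3 pairs had an IDR region, 1 gene of 9 pairs had one, and neither gene of RpL37-1 and RpL37-2 did. With 58.7% of the 92 genes hit, members paired without regard to kinship would often differ too. Whether paralogs differ more often than such pairs was not tested. The longest run of bases shared by the promoters of a pair was 8 to 11, depending on the pair.

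RpS19a, the copy used in most tissues, had ranks 2122, 555 and 754 in replicates 1, 2 and 3, with summits within 65 bp of the TSS. RpS19b, known from germ cells, had ranks 2437, 3745 and 8013 from summits -875, -882 and -955 bp from its TSS, nearer to CG5854. RpS10b had ranks 5149, 120 and 321, and RpS10a, a germ-line copy, had ranks 8780, 12574 and 18772 with summits at -672, -613 and 956 bp. In both pairs the copy used in most tissues stood higher in replicates 2 and 3, and in replicate 1 too.

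RpS14a and RpS14b, tandem copies on the X chromosome, have starts 1156 bp apart. RpS14a had ranks 12534, 17984 and 2113 and RpS14b had ranks 5497, 1172 and 2198, so the copies were far apart in replicate 2 and near in replicate 3. ATCGATA and a CTTT start stood in the promoter of RpS14a, which had no IDR region. RpS15Aa had ranks 1729, 607 and 1938, and RpS15Ab had rank 20156 in replicate 1 alone. RpS28b had ranks 869, 351 and 798. RpS28a had ranks 9248 and 9835 in replicates 1 and 3. RpS28-like had ranks 1415, 10579 and 3068. The region was near numb in replicates 1 and 3, while in replicate 2 the summit was at -418 bp, on the side away from numb.

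Among large subunit pairs, RpL34a and RpL34b were both hit. RpL34a had ranks 5738, 218 and 315 from summits -198, -109 and -142 bp from its TSS. Those of replicates 1 and 3 were nearer to Trmt61, which starts 229 bp away, and that of replicate 2 was nearer to RpL34a. RpL10Ab had ranks 4211, 2338 and 2969, and RpL10Aa was in no list. RpL37-1 had ranks 10116, 4472 and 7002, and RpL37-2 had rank 20176 in replicate 2 alone. RpL34 was the only pair grouped here as large subunit with an IDR region at both copies. RpLP0 and RpLP0-like, grouped apart as a stalk and a -like gene, both had one too.

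Of the -like genes, RpL22-like, a paralog used in the testis, was in no list, while RpL22 had ranks 1608, 810 and 997. RpL24 had ranks 2014, 300 and 575, and RpL24-like, a factor in ribosome assembly, had ranks 23871 and 2847 in replicates 1 and 3. RpL7-like had ranks 9534 and 2000 in replicates 1 and 3, against 150, 59 and 155 for RpL7. RpLP0-like had ranks 1125 and 3586 in replicates 1 and 3, with IDR rank 2294 and a summit at -83 bp from its own TSS and -4 bp from that of 14-3-3zeta. None of the -like genes was among the 3319 highest regions of replicate 2.

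**Figure D5:**
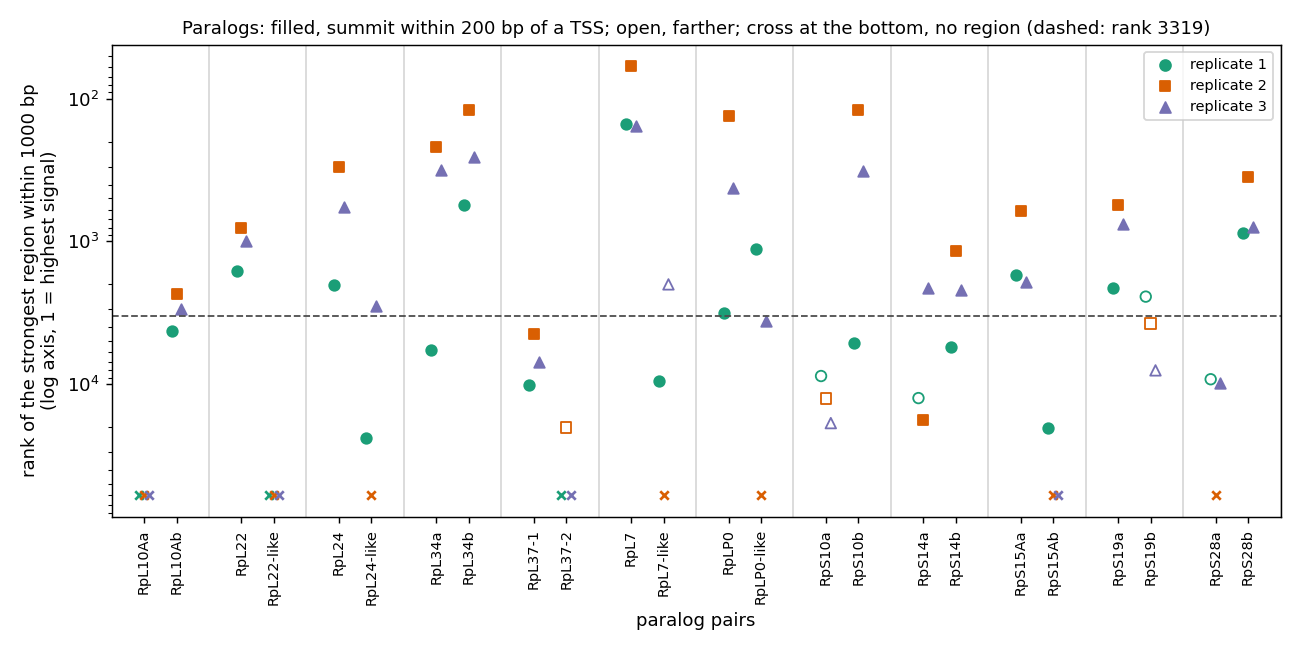
Rank (log axis, 1 at the top) of the strongest region within 1000 bp of a TSS for each copy of 12 of the 13 paralog pairs, in 3 replicates. Filled points have their summit within 200 bp of a TSS and open points farther away, crosses at the bottom stand for no region, and the dashed line is rank 3319. RpS15Aa has points at 1729, 607 and 1938, and RpS15Ab has 1 point at 20156.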

How the data were processed

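Hey-GFP ChIP-seq of 3 biological replicates was analysed from 5 deposited region lists in dm6: 1 per replicate, 1 pooled and 1 IDR-thresholded. Per the deposited file listings, replicate lists were made from 1 replicate's reads and a control, the pooled one from the reads of all 3, and the IDR one from those 4. No source used here names the aligner, the caller, the IDR threshold or the read depth, so precision per region is unknown. The signal value per region is the authors' own, of unstated scale, and only ranked regions within a list. The deposited −log10 q-value played no part in ranking. The summit is another deposited column, an offset from the region start.

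Genes and TSSs came from Ensembl release 115 of BDGP6.54, which shares coordinates with dm6, and sequences from the RefSeq release 6 genome. N = 3319 is the number of IDR regions. The strongest region per gene was taken. Coordinates are 1-based. Shares have 95% Wilson intervals, and differences per replicate exact sign-flip permutation tests over 3 replicates, paired because both shares come from the same library, with Benjamini-Hochberg adjustment at 0.05. Nothing in the labels ties a replicate number to a batch. Python 3.11.15, numpy 2.4.6, pandas 2.3.3, scipy 1.17.1, statsmodels 0.14.6 and matplotlib 3.10.9 were used, and the scripts were tested on simulated data. The members, lists and motifs were chosen with earlier results of these data known. The rule for named genes gives values in every replicate for the 10 highest IDR members, both members of each paralog pair and members in no list; members in the IDR list but not among the N highest of all replicates are given by count and examples. Alternatives changed the distance limit, the number of regions, the TSS set, the motif window and the replicates used. The values of a few single genes are not reported here, though they are part of all counts and medians.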

Additional observations from a re-analysis of the deposited data

How the results depend on the processing

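The count of 54 ribosomal protein genes with an IDR region was 52 at 500 bp, 55 at 2000 bp, 48 with the nearest TSS only, 54 with the 5′ end of the gene model, 42 with the 1659 highest IDR regions, and 52 without the -like genes. Keeping only IDR regions within 100 bp of one of the N highest of both remaining replicates gave 32 to 44 genes on leaving out 1 replicate. The count was 44 without replicate 1, 35 without replicate 2 and 32 without replicate 3, and 31 when all 3 replicates were required, with 6.01%, 5.52%, 5.38% and 4.4% of all genes. This rule is stricter than the authors' by construction. The mean of 50.7 genes per replicate ranged from 44.5 to 56.0 without 1 replicate, and was 36.7 with the 1659 highest regions and 73.3 with all regions.

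The difference of 44.2 points from all genes stayed positive in every alternative run, at 37.3 to 50.8 points without 1 replicate, and that of 9.12 points between the subunits at 8.22 to 10.6 points. Both tests pair the shares within a library (replicate block). With no replicate block, the exact permutation p was 0.1 and 0.5, against 0.25 for both with it. The smallest p that 3 replicates allow is 0.1 without the block and 0.25 with it. Neither test could pass 0.05, so the calls could not change and say nothing on robustness. The median summit position was -27 bp with every IDR summit and -25.5 bp at 500 bp. CTTT at any annotated TSS, an alternative chosen after seeing the data, was found at 64.8% of genes with an IDR region, 60.5% of those without and 8.07% of protein-coding genes, so the share of 42.6% depended on the TSS used. With 100 bp on either side of the TSS, a window that ends nearer the TSS upstream, TATAAA was found at 16.7% and 18.4%. The family as a whole, at 17.4%, then lay below all protein-coding genes, at 28.8%, unlike in the longer window. Other protein-coding genes with an IDR region held it at 20.4%. Read depth is unknown and its effect on the genes without a region was not tested.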

Other observations

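Outside the family, some of the highest regions of the series lay within 1000 bp of a TSS of single genes of the translation apparatus. These regions are given by distance alone, whether or not another gene starts nearer. The eIF2Bbeta region, at a subunit of the exchange factor that recycles eIF2, ranked 10 in the IDR list and 3, 17 and 30 in replicates 1, 2 and 3, with the summit at -673 bp. The region at eIF6, which keeps the large subunit from joining too early, ranked 33 and stood at -106 bp. Unlike the ribosomal protein genes RpS27 and RpL7, whose summits lay within 25 bp of the TSS, these summits were over 100 bp upstream. Of the elongation factors, eEF1gamma ranked 184 at -37 bp, eEF2 571 at -7 bp, eEF1alpha1 1391 at -24 bp and eEF5 1439 at -37 bp. The eIF1 region at rank 310 is the same one as at RpL28, with its summit at -322 bp from eIF1 and -59 bp from RpL28.

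The 9 mitochondrial ribosomal protein genes with an IDR region included mRpL41 at rank 28, mRpS23 at rank 50 and mRpS10 at rank 54, with summits at -133, -384 and -139 bp. The ranks of mRpL41 were 110, 15 and 29 in replicates 1, 2 and 3. Of the 73 genes, 61 were outside the N highest regions of every replicate (83.6%), against 82.6% of all genes and 25% of the cytosolic ribosomal protein genes.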
